A study of Populus tremula x Populus alba with 2 samples.

Results

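The genes described are the class III homeodomain leucine zipper (HD-ZIP III) transcription factors of poplar, 8 genes out of 41335 poplar genes in the expression table. They were taken by their identifiers, which came already assigned to 4 clades of 2 genes each: REVOLUTA-type, CORONA/ATHB15-type, ATHB8-type and PHB/PHV-type. The rule that lists them uses no measured value, though it was written with earlier results of these data known. The table pairs its identifiers with no names or annotation, and no sequences were used here, so the clade of each gene was not checked.

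HD-ZIP III proteins carry a homeodomain, a leucine zipper and a START domain, and bind DNA as dimers. In Arabidopsis they set the upper side of leaves, maintain shoot meristems and pattern the vascular tissue, where their activity on the inner side of the cambium goes with xylem identity. The microRNA miR166 cleaves their transcripts within the START coding region, and the small LITTLE ZIPPER proteins block their dimers. In woody stems members of the family act in the cambium and the young xylem, the tissues from which wood is made.

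RNA came from stems of hybrid aspen (Populus tremula x Populus alba), from internodes 1 to 15 counted from the tip, with the bark taken off. The transgenic group was the single line MOMT4-0, which carries an engineered monolignol 4-O-methyltransferase under the bean PAL2 promoter, a promoter active where xylem begins to differentiate. The control group was labelled WT, and both groups were coppiced plants grown for about 2 months in a greenhouse. Each group gave 1 library from the pooled stems of 2 to 3 plants, so plant-to-plant variation was not measured, no test of a difference between the lines was possible, and every value below is 1 value from 1 pool. One question of the study was whether transgene expression altered transcript levels across the genome, and the values below bear on it for these 8 genes in these pools.

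The value of each gene is its RPKM, which the authors describe as reads scaled by exon length and by the library's mapped reads. It can be compared between genes because it is per length. The columns are headed MOMT4 and WT, whereas the short library codes in the sample descriptions run the other way. The headings were followed here, and the row that is no poplar gene, taken as the transgene, stood at 1221.8 RPKM under MOMT4 and 4.79 under WT. From the steps between low values, the scaling totals were about 9460000 reads for MOMT4-0 and 8750000 reads for the control, so that a single read weighed 1.08 times more in the control. A filter of 1 RPKM on the mean of the libraries left 22944 poplar genes, among them all 8 HD-ZIP III genes. Tissue markers could not be matched without annotation, so the labelled tissue was not checked. In RNA of debarked stems, fewer cells that express a gene and less RNA per cell cannot be told apart.

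All 8 HD-ZIP III genes were expressed above the median of the filtered genes, which was 11.0 RPKM in MOMT4-0 and 11.2 RPKM in the control. Together they summed to 378.8 RPKM in MOMT4-0 and 429.8 RPKM in the control. Every member had the lower value in MOMT4-0, by between 5.40% and 21.0%. None was 2-fold apart. In percent of the control, the library difference was smallest in the CORONA/ATHB15-type pair and largest in a REVOLUTA-type and an ATHB8-type gene.

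**Figure D1:**
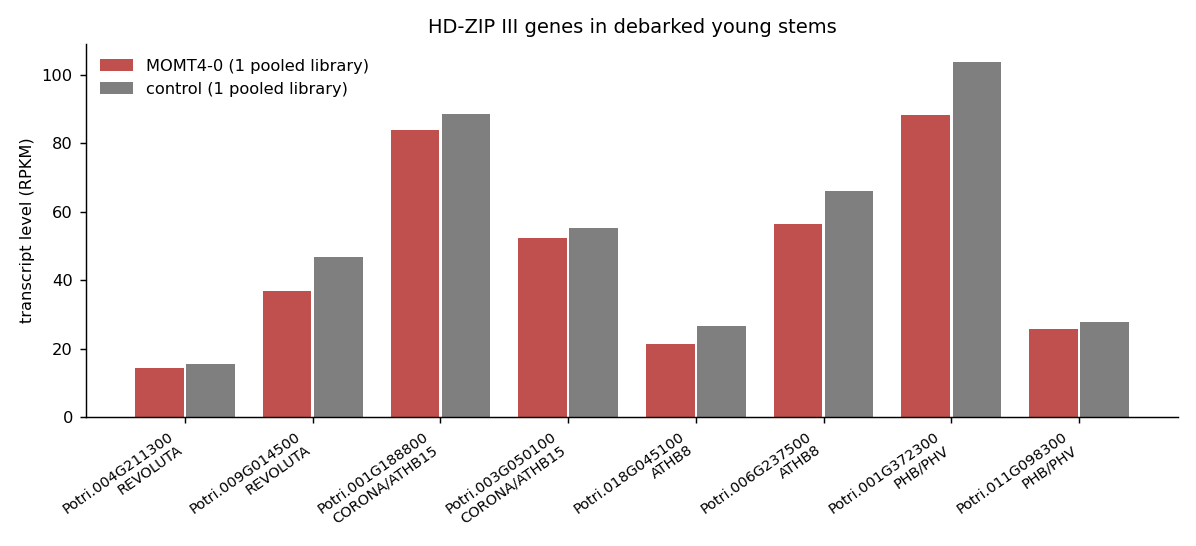
Transcript level in RPKM (vertical axis, from 0) of the 8 HD-ZIP III genes, with the MOMT4-0 library at the left and the control library at the right of each pair of bars. Each bar is 1 library pooled from 2 to 3 plants, so there are no error bars. The levels run from 14.4 to 88.2 RPKM in MOMT4-0 and from 15.5 to 103.7 RPKM in the control, and each MOMT4-0 bar is the shorter of its pair.

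REVOLUTA in Arabidopsis promotes interfascicular fibres, secondary growth and the adaxial side of organs. Of the REVOLUTA-type genes, Potri.009G014500 (chromosome 9, 2486041 to 2495098 in the table's coordinates, whose genome build was not given in the sources used here) had 36.8 RPKM in MOMT4-0, against 46.6 RPKM in the control. Its log2 ratio of MOMT4-0 over control, with 1 RPKM added to each value, was -0.33, the lowest of the family. Its duplicate Potri.004G211300 (chromosome 4, 21883159 to 21891899) had 14.4 RPKM in MOMT4-0 and 15.5 RPKM in the control, a log2 ratio of -0.10. This was the least abundant of the 8 genes in both libraries. The pair summed to 51.3 RPKM in MOMT4-0 and 62.1 RPKM in the control, the smallest sum of the 4 clades.

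CORONA, also called ATHB15, acts with the other class members in the meristem and the vascular tissue of Arabidopsis. Potri.001G188800 (chromosome 1, 16696483 to 16705106) had 83.8 RPKM in MOMT4-0 and 88.5 RPKM in the control. Potri.003G050100 (chromosome 3, 7359743 to 7368598) had 52.2 RPKM in MOMT4-0 and 55.2 RPKM in the control. Both had a log2 ratio of -0.08, the nearest to 0 of the family, and the MOMT4-0 level was 5.40% below the control for the first gene and 5.44% below it for the second. The pair gave the highest clade sum, with 136.0 RPKM in MOMT4-0 and 143.7 RPKM in the control.

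ATHB8 in Arabidopsis marks procambial cells and responds to auxin through the factor MONOPTEROS. Potri.006G237500 (chromosome 6, 24667224 to 24674234) had 56.4 RPKM in MOMT4-0, against 66.0 RPKM in the control, a log2 ratio of -0.22. Potri.018G045100 (chromosome 18, 4122412 to 4129941) had 21.3 RPKM in MOMT4-0, against 26.5 RPKM in the control, a log2 ratio of -0.31. Both duplicates of this clade lay below the control by more than either CORONA/ATHB15-type gene did. The pair summed to 77.6 RPKM in MOMT4-0 and 92.5 RPKM in the control.

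PHABULOSA and PHAVOLUTA (PHB and PHV) specify the upper side of leaves in Arabidopsis and, in its root, help to set the type of xylem vessel. Potri.001G372300 (chromosome 1, 38644880 to 38653027) was the most abundant HD-ZIP III gene, with 88.2 RPKM in MOMT4-0 and 103.7 RPKM in the control, a log2 ratio of -0.23. Potri.011G098300 (chromosome 11, 11974839 to 11982565) had 25.7 RPKM in MOMT4-0 and 27.7 RPKM in the control, a log2 ratio of -0.11. The pair summed to 113.9 RPKM in MOMT4-0 and 131.4 RPKM in the control.

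2 members share their listed position with another row, so reads there could have been divided between the rows. The row at the position of Potri.003G050100 is listed at 0 in both libraries, and the row at that of Potri.001G372300 had 0.132 RPKM in MOMT4-0 and is listed at 0 in the control. For these members the listed span may also cover the other gene. The other 6 members were alone at their positions.

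The order of the 8 levels was the same in both libraries. It ran from Potri.001G372300 through Potri.001G188800, Potri.006G237500, Potri.003G050100, Potri.009G014500, Potri.011G098300 and Potri.018G045100 to Potri.004G211300. The highest level was 6.12 times the lowest in MOMT4-0 and 6.70 times the lowest in the control. Some neighbours in this order were close: Potri.001G372300 stood 1.05-fold above Potri.001G188800 in MOMT4-0 and 1.17-fold above it in the control, and Potri.011G098300 stood 1.21-fold above Potri.018G045100 in MOMT4-0 and 1.04-fold above it in the control. With 1 library a line, whether such neighbours differ beyond the spread between plants is not known. Levels of different genes also rest on reads aligned to another species, P. trichocarpa, with 1 mismatch allowed, and the part of reads lost in each gene was not tested.

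Among all filtered genes, Potri.004G211300 had a level above that of 58.3% of genes in MOMT4-0 and 60.3% in the control. Potri.001G372300 stood above 94.0% of genes in MOMT4-0 and 95.1% in the control, with 1383 genes above it in MOMT4-0 and 1112 in the control. The family gave 0.0574% of the summed RPKM of all poplar genes in MOMT4-0 and 0.0642% in the control.

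By clade, the CORONA/ATHB15-type pair held 35.9% of the family's summed level in MOMT4-0 and 33.4% in the control. The PHB/PHV-type pair held 30.1% in MOMT4-0 and 30.6% in the control. The ATHB8-type pair held 20.5% in MOMT4-0 and 21.5% in the control. The REVOLUTA-type pair held 13.5% in MOMT4-0 and 14.5% in the control. The CORONA/ATHB15-type share was thus the only one of the 4 that was larger in MOMT4-0. The clade sums were below the control by 17.5% for the REVOLUTA type, 16.1% for the ATHB8 type, 13.3% for the PHB/PHV type and 5.42% for the CORONA/ATHB15 type. As log2 ratios of the sums, with no pseudocount, these are -0.28, -0.25, -0.21 and -0.08, against -0.18 for the whole family.

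In RPKM, the PHB/PHV-type pair made up 34.3% of the family's difference between the libraries and the ATHB8-type pair 29.1%. The REVOLUTA-type pair made up 21.3% of it and the CORONA/ATHB15-type pair, the most abundant clade, 15.3%.

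**Figure D2:**
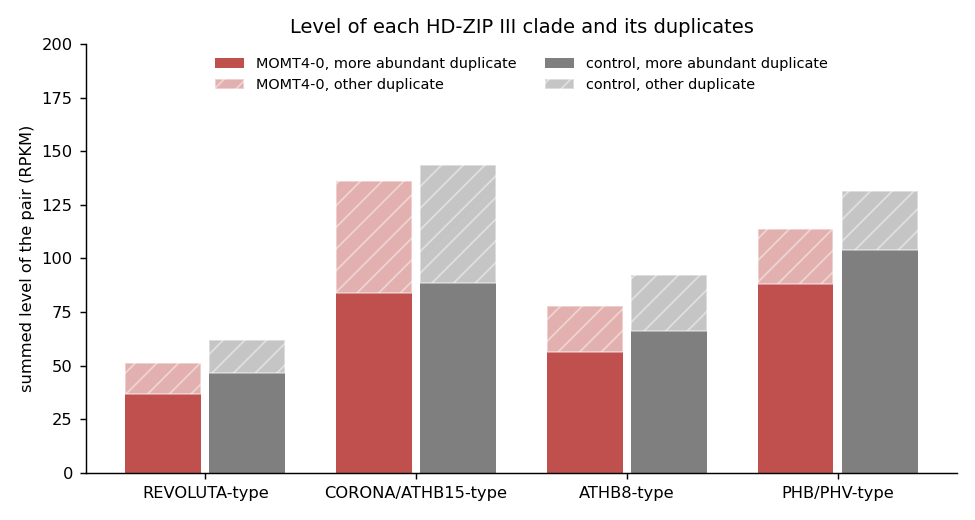
Summed RPKM of each HD-ZIP III clade (vertical axis, from 0) in MOMT4-0 at the left and the control at the right of each pair, with 1 pooled library a bar. The solid part is the more abundant duplicate and the hatched part the other one. The CORONA/ATHB15-type bars are the tallest, at 136.0 RPKM in MOMT4-0 and 143.7 RPKM in the control, and the solid part is the larger one in every bar.

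In each clade 1 duplicate gave most of the transcript by RPKM, and it was the same duplicate in both libraries. Whether reads of a gene were placed on its duplicate was not tested, and the shares rest on that placement. Potri.001G372300 gave 77.5% of the PHB/PHV-type level in MOMT4-0 and 78.9% in the control. Potri.006G237500 gave 72.6% of the ATHB8-type level in MOMT4-0 and 71.3% in the control. Potri.009G014500 gave 71.9% of the REVOLUTA-type level in MOMT4-0 and 75.1% in the control, a difference of -3.22 percentage points that was the largest of the 4 clades. Potri.001G188800 gave 61.6% of the CORONA/ATHB15-type level in both libraries, the most even pair.

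The log2 ratios of the REVOLUTA-type genes differed by 0.24, those of the PHB/PHV type by 0.13 and those of the ATHB8 type by 0.08, whereas those of the CORONA/ATHB15 type were nearly the same, at 0.946 for each gene as a fold of MOMT4-0 over control. By ratio, the gene farther below the control was the more abundant duplicate in the REVOLUTA and PHB/PHV types and the less abundant one in the ATHB8 type. Whether duplicates of a clade differ in their ratio was not tested. Their counting intervals, described below, overlap at the fewest reads in every clade. At the most reads they overlap in every clade but the REVOLUTA type. There the interval of Potri.009G014500 was 0.753 to 0.829 and that of Potri.004G211300 was 0.859 to 1.01.

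By the rule of size used in place of a test, 1.77% of the 22944 filtered genes had a ratio past 2-fold after the pseudocount, with 1.08% at least 2-fold higher and 0.684% at least 2-fold lower in MOMT4-0. No HD-ZIP III gene met this rule in either direction. None met a limit of 1.5-fold either, which 7.07% of the filtered genes met. With 8 genes and shares this small, these counts say little about the family. The median log2 ratio of the 8 genes was -0.16, against -0.0057 over all filtered genes, whose middle 50% lay between -0.17 and 0.16. All 8 members were lower in MOMT4-0, where 50.9% of all filtered genes were lower by any amount. The 8 genes are related and come from the same pools, so they are not 8 independent observations of the lines.

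The ratio of Potri.009G014500 was above that of 10.6% of the filtered genes and that of Potri.018G045100 above 12.1%, while both CORONA/ATHB15-type genes were above 37.7%. Ratios spread less among genes of like level than among all, whose middle 95% lay between -0.63 and 0.71. For the 8093 genes with a mean between 15.0 and 96.0 RPKM, the range of the members, the middle 95% lay between -0.45 and 0.50 on the log2 scale, a span that holds all 8 members.

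**Figure D3:**
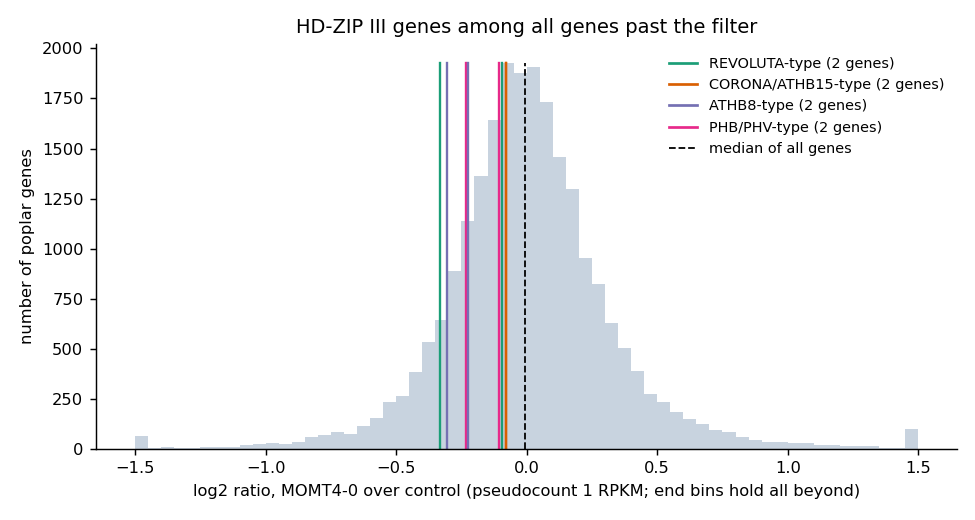
Number of poplar genes (vertical axis) by log2 ratio of MOMT4-0 over control with a pseudocount of 1 RPKM (horizontal axis), for the 22944 genes past the filter. Coloured lines mark the 8 HD-ZIP III genes by clade and the dashed line marks the median of all genes at -0.0057. The members lie between -0.33 and -0.08, left of the median and inside the bulk of the genes.

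The members share long gene spans, which were not used to choose them. They span between 7011 and 9058 bases, introns included, with a median of 8386 bases, against 3657 bases over the filtered genes, and the shortest of them is longer than 85.6% of those genes. The 1728 filtered genes of that span had a median log2 ratio of -0.016, and 52.8% of them were lower in MOMT4-0. Of the 712 genes that fell within the members' range of both span and level, 53.8% were lower in MOMT4-0, with a median of -0.017, and 18.3% had a ratio at or below -0.16, the median of the family.

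Counting error could be bounded, though not fixed, for each member. Exact 95% intervals (Clopper-Pearson) on the split of reads between the libraries were computed at the most and at the fewest reads that the values allow. The most is reached if the whole listed span were exon, and the fewest is the smallest pair of whole numbers whose ratio matches the printed values within rounding, which holds only if whole reads were counted. Among 158 rows of 6000 to 10000 bases with a mean under 0.5 RPKM, where such a pair can be seen, 76.6% matched a pair of at most 60 reads in MOMT4-0. These intervals cover counting error alone and say nothing of the spread between plants.

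For 3 genes the ratio of RPKM in MOMT4-0 to that in the control lay below 1 at both bounds. Potri.009G014500 had a ratio of 0.790, with an interval of 0.753 to 0.829 at the most reads (3082 in MOMT4-0 and 3608 in the control) and 0.699 to 0.893 at the fewest (486 in MOMT4-0 and 569 in the control). Potri.018G045100 had a ratio of 0.802, with an interval of 0.747 to 0.860 at the most reads and 0.718 to 0.895 at the fewest. Potri.006G237500 had a ratio of 0.855, with an interval of 0.817 to 0.894 at the most reads and 0.790 to 0.925 at the fewest. Both ATHB8-type genes and the more abundant REVOLUTA-type gene thus differed between the libraries by more than counting error at these bounds. This does not set them apart from Potri.001G372300, since the fewest reads did not follow abundance. For Potri.006G237500, at 56.4 RPKM in MOMT4-0, the fewest was 1202 reads in that library. For Potri.001G372300, at 88.2 RPKM in MOMT4-0 and a ratio of 0.851, it was 229.

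Potri.004G211300, with a ratio of 0.932, had an interval that held 1 at both bounds, 0.859 to 1.01 at the most reads and 0.808 to 1.07 at the fewest. Its difference was not detectable at this depth. For the other 4 genes the intervals lay below 1 at the most reads and held 1 only at the fewest. The fewest reads are a floor set by the digits of the printed values, not an estimate of the reads behind them, which are not known. Potri.001G372300, with a ratio of 0.851, had intervals of 0.823 to 0.880 at the most reads and 0.708 to 1.02 at the fewest (229 in MOMT4-0 and 249 in the control). Its values matched 64 pairs of whole numbers in all, searched up to 3000 reads in MOMT4-0. The ratios of Potri.001G188800, Potri.003G050100 and Potri.011G098300, all between 0.927 and 0.946, also had intervals under 1 at the most reads and across 1 at the fewest.

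**Figure D4:**
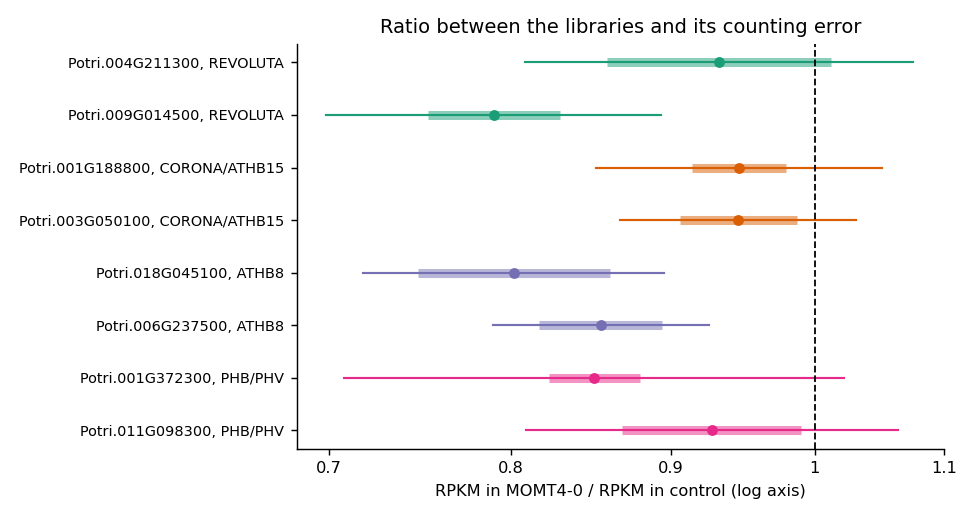
Ratio of RPKM in MOMT4-0 to RPKM in the control (horizontal log axis) for each HD-ZIP III gene, coloured by clade, with the dashed line at 1. Thick bars are exact 95% counting intervals at the most reads the values allow and thin lines those at the fewest. Both bars lie left of 1 for Potri.009G014500, Potri.018G045100 and Potri.006G237500, and the thick bar crosses 1 for Potri.004G211300.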

How the data were processed

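The authors aligned the reads to P. trichocarpa with TopHat (Bowtie is also named in the submitters' processing notes), derived gene counts and deposited them as RPKM, 1 value per gene and library. For these programs no version, and for the genome no build, is given in the sources used here. The read length is 100 bp in the methods and 50 bp in the series' design text. The deposited table also holds the authors' Cuffdiff fold change, test statistic, p and q columns, which were not used.

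Log2 ratios of MOMT4-0 over control used a pseudocount of 1 RPKM, which understates the difference of low genes. Poplar genes whose 2 values averaged 1 RPKM or more were kept, the 2 rows with a failed status in the table were left out, and genes at least 2-fold apart were counted across all of them. No p-value or SD was computed, there being 1 library per line. The worth of 1 read was read from the most frequent ratio of values other than 1, shared by 1007 rows. The totals came from 5674 low rows whose values matched a small pair of whole reads. They were set where the most rows, 567, gave the same total, with 214 bases taken off each span. Those rows were taken to be single-exon, which was not checked. Starts have 1 added to the table's starts.

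All 8 members were named by rule. The members, clades and lists were chosen with earlier results of these data known. Pathway and tissue marker lists, to be matched on annotation text, were not analysed here. Alternatives were a pseudocount of 0.1, other filters and fold limits, centring, and scaling to equal sums. The steps were tested on simulated data made of whole reads, so values that do not come from whole reads were not covered. The programs were SciPy 1.17.1 and NumPy 2.4.6 with pandas 2.3.3, and matplotlib 3.10.9 for figures, under Python 3.11.15.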

Additional observations from a re-analysis of the deposited data

How the results depend on the processing

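No paired analysis was possible because each line gave 1 library. All 8 HD-ZIP III genes stayed lower in MOMT4-0 with a pseudocount of 0.1 and with 3 kinds of centring (on all filtered genes, on genes of like span and on genes of like level, the last 2 chosen after seeing the data), with log2 ratios between -0.34 and -0.06. A change of pseudocount cannot reverse the direction of a ratio, so of these settings only the centring could have done so. No value was shifted by more than 0.016, and the member ratio nearest to 0 was -0.08. The family median of -0.16 was -0.15 when centred on genes of like span, -0.16 when centred on genes of like level and -0.22 without Potri.004G211300, the least abundant member. With both libraries scaled to equal sums over all poplar genes, the log2 ratio of the family sum was -0.16 in place of -0.18, and that of each clade stayed below 0. No member was 2-fold apart under any pseudocount or centring tried, and none was past a limit of 1.5-fold. The other filters and a limit of 4-fold could not change this, since all members pass each filter and none reaches 2-fold.

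The background count over all poplar genes moved more. It was 405 genes, and 861 with a pseudocount of 0.1, 142 with a mean of at least 5 RPKM, 1621 at a limit of 1.5-fold and 70 at one of 4-fold. The pathway lists could not be matched, so their alternatives were not run. Depth limits the genes with the fewest reads, and with 1 pool per line the spread between plants, which no setting here can supply, is unknown.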

Other observations

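The genes on either side of the HD-ZIP III genes were also read from the table. Of the 16 nearest genes, 1 on each side of each member at distances of 1054 to 57470 bases, 5 were listed at 0 in both libraries and 11 passed the filter of 1 RPKM. None had a mean level above that of the HD-ZIP III gene beside it. 7 of the 11 were higher and 4 lower in MOMT4-0, with log2 ratios between -0.42 and 0.54 and a median of 0.0095. Over all filtered genes 50.9% were lower in MOMT4-0, and whether the neighbours differ from that share was not tested. Beside Potri.009G014500, the member with the lowest ratio, the neighbour after it, Potri.009G014600, had 23.3 RPKM in MOMT4-0 and 15.7 RPKM in the control, and the neighbour before it, Potri.009G014400, had 16.7 RPKM in MOMT4-0 and 19.0 RPKM in the control. Both neighbours of Potri.018G045100 and both of Potri.003G050100 were listed at 0 in both libraries. These neighbours were chosen by position alone, after the members' values were seen.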
